A study of Mus musculus with 10 samples.

Results

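Chemokine transcripts were followed in the CA3 field of the mouse hippocampus after injection of a virus carrying a short hairpin RNA (shRNA) against Mef2c. The 9 ligands Ccl2, Ccl3, Ccl4, Ccl5, Cxcl9, Cxcl10, Cxcl12, Cxcl16 and Cx3cl1 were chosen by gene symbol, and all 9 were found among the 18453 genes of the count tables. The 5 knockdown libraries came from male C57BL/6J mice infused in CA3 on both sides with adeno-associated virus for the Mef2c shRNA, and the 5 scramble libraries from mice of the same strain and tissue infused with virus for a scrambled hairpin. Every library is thus from injected tissue, and no uninjected CA3 was analysed here. The virus was aimed at pyramidal neurons, its promoter and serotype are not given in the labels, and neither are the age of the mice or the time after injection. The characteristics give male mice, while the injection protocol speaks of male or female mice. The labels do not say whether each library is a separate animal, so the p-values reflect how far these libraries differ, which may be partly technical.

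Chemokines are small secreted or membrane-anchored proteins that bind seven-pass membrane receptors and direct the migration of cells. Ccl2 attracts monocytes through Ccr2, Ccl3, Ccl4 and Ccl5 attract macrophages and T cells, and Cxcl9 and Cxcl10 are induced by interferons and attract T cells through Cxcr3. Of the ligands followed here, the healthy brain carries mainly Cx3cl1 (fractalkine) and Cxcl12. Neurons carry Cx3cl1 on their membrane, and its receptor Cx3cr1 is on microglia. Cxcl12 acts through Cxcr4 and is bound by the scavenging receptor Ackr3.

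The promoters of the interferon-induced pair and of the abundant neuronal ligand are shown because these genes stood at opposite ends of the variation between libraries. Promoters of 5 of the 9 ligands were in the RefSeq table of GRCm38.p6, each running from 250 bases before to 50 bases after the annotated start. Both strands were searched for GAAANNGAA (core of the interferon-stimulated response element), TTCNNNGAA (gamma-activated site), GGGANNTTC (an NF-kappaB site) and TATAAA, and matches are in capitals in the sequences of Cxcl10 (chr5:92348840-92349139, minus strand), Cxcl9 (chr5:92328030-92328329, minus strand) and Cx3cl1 (chr8:94771930-94772229, plus strand), each given 5′ to 3′ on the strand of the gene.
Cxcl10: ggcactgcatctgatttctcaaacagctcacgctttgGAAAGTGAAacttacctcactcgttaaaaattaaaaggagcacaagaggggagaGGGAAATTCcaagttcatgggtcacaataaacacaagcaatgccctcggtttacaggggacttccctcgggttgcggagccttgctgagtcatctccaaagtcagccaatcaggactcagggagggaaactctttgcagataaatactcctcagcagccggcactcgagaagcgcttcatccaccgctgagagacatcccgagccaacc
Cxcl9: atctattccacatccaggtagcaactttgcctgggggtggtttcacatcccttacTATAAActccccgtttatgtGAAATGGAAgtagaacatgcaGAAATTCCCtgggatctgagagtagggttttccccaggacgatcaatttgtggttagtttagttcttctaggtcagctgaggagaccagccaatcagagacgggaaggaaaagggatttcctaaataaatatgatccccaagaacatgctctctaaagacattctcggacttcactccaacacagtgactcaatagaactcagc
Cx3cl1: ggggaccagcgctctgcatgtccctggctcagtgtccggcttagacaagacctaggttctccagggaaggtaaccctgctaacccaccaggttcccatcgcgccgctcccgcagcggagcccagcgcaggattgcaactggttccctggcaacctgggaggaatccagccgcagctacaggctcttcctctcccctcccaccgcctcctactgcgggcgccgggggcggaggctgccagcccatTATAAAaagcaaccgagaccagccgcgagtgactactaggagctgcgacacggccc
In Cxcl10 the capitals mark GAAAGTGAA, which begins at position -213 from the start, and GGGAAATTC at position -159. In Cxcl9 they mark TATAAA at position -195, GAAATGGAA at position -175 and, on the opposite strand, the NF-kappaB letters at position -154, printed as GAAATTCCC. The Cx3cl1 window held TATAAA at position -6 and none of the other letters. Among the promoters not printed, that of Ccl3 held the interferon core on the opposite strand at position -39, and that of Cxcl12 held none of the 4 motifs. No gamma-activated site was found in the 5 windows, and no 2 matches overlapped. Of the 32851 promoters of 27025 genes in the table, 8.56% held the interferon core, 8.30% the gamma-activated site, 3.94% the NF-kappaB letters and 13.6% TATAAA. These are matches of letters in a window and not sites shown to be bound. Promoters of Ccl2, Ccl4, Ccl5 and Cxcl16 are not shown.

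Reads assigned to genes totalled 15669620 to 17798090 per knockdown library and 14701928 to 15637076 per scramble library, so 3 counts, used here as the floor of detection, correspond to 0.167 to 0.206 CPM. CPM, the counts relative to the total of a library, used totals scaled with TMM factors. Mef2c had 110.5, 130.8, 121.1, 163.2 and 286.1 CPM in knockdown libraries 1 to 5, against 166.3, 197.7, 175.8, 312.0 and 175.2 CPM in scramble libraries 1 to 5. The library labelled knockdown 5 therefore held more Mef2c than 4 of the 5 scramble libraries, which goes against its label, and over all 10 libraries the log2 fold change of Mef2c was -0.34 with an SE of 0.30 and an adjusted p of 0.489 (edgeR). Without that library and scramble 4, the libraries with the most Mef2c, it was -0.45 and passed the threshold (edgeR adjusted p 0.0274). These libraries were left out on the value tested, so that p-value does not count as a test of the knockdown. No fit that left out a single library passed the threshold (lowest edgeR adjusted p 0.0877). Summed markers of CA3 pyramidal neurons were present in every library, at 261.0 to 370.2 CPM with the shRNA and 303.7 to 332.1 CPM with scramble. Markers of neighbouring tissue were present too, with those of dentate granule cells at 447.4 to 700.3 CPM with the shRNA and 475.7 to 618.4 CPM with scramble. Those of the choroid plexus ran from 46.3 to 2761.6 CPM with the shRNA and from 68.2 to 1983.2 CPM with scramble. Markers of cortical layer neurons summed to 210.6 to 449.2 CPM with the shRNA and 251.9 to 381.2 CPM with scramble. Their sum was highest in the library labelled knockdown 5 and next in scramble 4, the libraries with the most Mef2c. Whether the amount of cortical tissue bears on the Mef2c values was not tested.

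In scramble libraries the ligands fell into 2 abundant, steady transcripts and 7 scarce ones, which are called the scarce ligands here although in some knockdown libraries Ccl5 and Cxcl10 exceeded Cxcl12 per kilobase. Compared per kilobase of the longest transcript, Cx3cl1 led with 165.9 ± 5.28 CPM per kb in knockdown libraries and 164.6 ± 8.48 CPM per kb in scramble libraries (SD, n = 5 each). In scramble libraries Cxcl12 followed at 10.9 ± 0.884 CPM per kb, then Ccl5 at 1.76 ± 2.23, Cxcl10 at 1.10 ± 1.32, Cxcl16 at 0.770 ± 0.478, Ccl3 at 0.421 ± 0.373, Ccl2 at 0.229 ± 0.254, Cxcl9 at 0.190 ± 0.257 and Ccl4 at 0.141 ± 0.315 CPM per kb (SD, n = 5). Cx3cl1 and Cxcl12 were separated from their neighbours in that order by more than the spread, whereas no 2 neighbours from Ccl5 downward were. With the shRNA the mean of Ccl5 was 13.2 ± 13.9 CPM per kb, level with that of Cxcl12 at 10.98 ± 1.13 CPM per kb (SD, n = 5 each). Cx3cl1 alone made up between 79.0% and 91.2% of the summed CPM of the 9 ligands in each library.

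**Figure D1:**
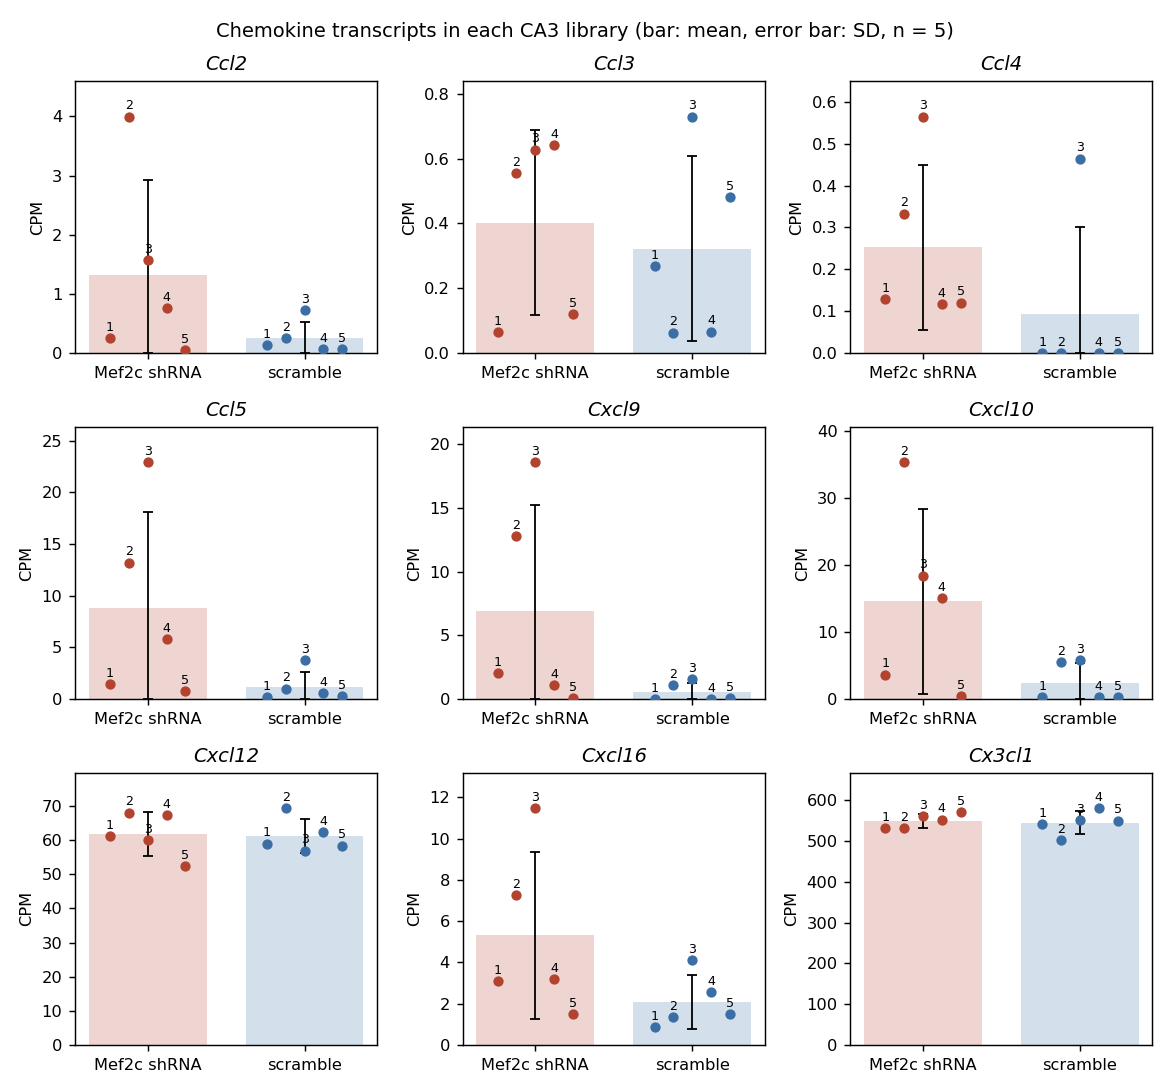
Level of each of the 9 chemokine transcripts in CPM (vertical axes, each panel with its own scale) in the 5 Mef2c shRNA and the 5 scramble libraries; points are libraries with their number, bars are means and error bars are SD, cut at 0. In Ccl5, Cxcl9, Cxcl10 and Cxcl16 the shRNA libraries run from near the scramble level up to 22.9, 18.6, 35.4 and 11.5 CPM, while Cxcl12 and Cx3cl1 lie close together in all 10.

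None of the 9 ligands passed the threshold for a change with the shRNA, although the mean of each was higher with the shRNA. After the filter on low counts 6 ligands were tested (Ccl5, Cxcl9, Cxcl10, Cxcl12, Cxcl16 and Cx3cl1), and 0 of them had an adjusted p under 0.05 in edgeR's quasi-likelihood test, against 12.3% of the 14393 genes tested (1766 genes, of which 671 rose, or 4.66% of those tested, and 1095 fell). At an unadjusted p under 0.05 there were 3 ligands (Ccl5, Cxcl9 and Cxcl16), against 30.1% of all genes. In no ligand did every knockdown library exceed every scramble library, which 3.3% of the tested genes did. The DESeq2 Wald test gave an adjusted p to 7 of the ligands and called 2 of them, Ccl2 and Ccl5, both higher. Of the 14859 genes it tested, 17.1% were called in either direction (2534 genes, of which 1163 rose). The median log2 fold change over the 6 tested ligands was 1.96, against 0.02 over all genes. Of those 6, Ccl5, Cxcl9 and Cxcl10 were scarce in most scramble libraries and would not have passed the filter on their scramble libraries alone. Cxcl9 and Cxcl10 passed through knockdown 1 to 4 together with scramble 2 and 3. The median therefore depends on the filter and does not stand for all 9 ligands. Fitted without the filter, the ligands it removed had log2 fold changes of 2.37 (Ccl2), 0.32 (Ccl3) and 1.36 (Ccl4). The count of 1766 genes itself depended on single libraries and ran from 631 to 3305 when 1 library was left out, while 0 ligands were called in each of those 10 fits. RNA of a tissue piece was measured, so a difference in the number of cells of a type and in RNA per cell cannot be told apart.

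Cxcl9 and Cxcl10 lie 18.6 kb apart on chromosome 5 and share the receptor Cxcr3. Cxcl10 (ENSMUSG00000034855, chr5:92346638-92348889, minus strand, mm10) had 3.66, 35.4, 18.4, 15.1 and 0.483 CPM in knockdown libraries 1 to 5, against 0.269, 5.50, 5.83, 0.335 and 0.344 CPM in scramble libraries 1 to 5. Knockdown libraries 2, 3 and 4 lay above every scramble library, whereas knockdown 1 and, lower still, the library labelled knockdown 5 were inside the scramble range. Cxcl10 averaged 14.6 ± 13.8 CPM in knockdown and 2.46 ± 2.93 CPM in scramble libraries (SD, n = 5 each), a log2 fold change of 2.56 with an SE of 1.18 and an edgeR adjusted p of 0.187. Cxcl9 (ENSMUSG00000029417, chr5:92321347-92328079, minus strand) had 2.06, 12.8, 18.6, 1.11 and 0.0604 CPM in knockdown libraries 1 to 5, against 0, 1.09, 1.59, 0 and 0.0688 CPM in scramble libraries 1 to 5. Here knockdown 1, 2 and 3 were above all scramble libraries and the groups overlapped in the other two. Its log2 fold change was 3.62, the largest of the 9 ligands, with an SE of 1.42 and an edgeR adjusted p of 0.128. The 2252 bases of Cxcl10 lie wholly within Art3 on the opposite strand, and since the strandedness of the counting is not known, reads of both genes cannot be told apart with certainty. Art3 itself stood at 2.95 to 4.72 CPM in knockdown and 2.61 to 3.52 CPM in scramble libraries.

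The balance of the pair differed between libraries of the same group. Cxcl9 made up 50.2% of the 590 counts of both genes in knockdown 3 (exact Clopper-Pearson 95% interval 46.1 to 54.3%) but 6.84% of 278 counts in knockdown 4 (4.17 to 10.5%). In knockdown 1 and 2 the share was 35.96% of 89 counts (26.1 to 46.8%) and 26.5% of 867 counts (23.6 to 29.6%). Scramble 2 and 3, the only scramble libraries with over 10 counts of the pair, gave 16.5% of 103 (9.92 to 25.1%) and 21.4% of 112 counts (14.2 to 30.2%). Knockdown libraries thus lay on both sides of these scramble libraries, and intervals and floors cover counting error only.

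Of the CC chemokines, Ccl5 was the most abundant. Ccl5 (ENSMUSG00000035042, chr11:83525778-83530518, minus strand), made by activated T cells and macrophages among others, had 1.48, 13.2, 22.9, 5.77 and 0.785 CPM in knockdown libraries 1 to 5, against 0.202, 1.02, 3.78, 0.603 and 0.275 CPM in scramble libraries 1 to 5. The 3 highest libraries were knockdown 3, 2 and 4, followed by scramble 3. Ccl5 averaged 8.83 ± 9.29 CPM in knockdown and 1.18 ± 1.49 CPM in scramble libraries (SD, n = 5 each), a log2 fold change of 2.89 with an SE of 1.09, an edgeR adjusted p of 0.117 and a DESeq2 adjusted p of 0.0323. Within the knockdown group the highest library exceeded the lowest 29.2-fold, and within the scramble group 18.7-fold.

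Ccl2, Ccl3 and Ccl4 did not pass the filter on low counts and are given as counts. Ccl2 (ENSMUSG00000035385, chr11:82035571-82037453, plus strand), the monocyte attractant, had 4, 72, 25, 13 and 1 counts in knockdown libraries 1 to 5, against 2, 4, 11, 1 and 1 counts in scramble libraries 1 to 5. Only knockdown 2, 3 and 4 exceeded the highest scramble library. Fitted without the filter, its log2 fold change was 2.37 with an SE of 0.99 and an edgeR adjusted p of 0.167, and DESeq2 gave 2.41 with an adjusted p of 0.0456. Ccl3 (ENSMUSG00000000982, chr11:83647844-83649355, minus strand) had 1, 10, 10, 11 and 2 counts in knockdown libraries 1 to 5, against 4, 1, 11, 1 and 7 counts in scramble libraries 1 to 5, and the groups overlapped throughout. Ccl4 (ENSMUSG00000018930, chr11:83662584-83664683, plus strand), which lies 13.2 kb from Ccl3, had 2, 6, 9, 2 and 2 counts in knockdown libraries 1 to 5, against 7 counts in scramble 3 and 0 in the other 4 scramble libraries. With so few counts only a large difference in Ccl3 or Ccl4 could have been seen at this depth. In the fit without the filter the log2 fold changes of Ccl3 and Ccl4 were 0.32 (SE 0.69, edgeR adjusted p 0.810) and 1.36 (SE 0.98, edgeR adjusted p 0.420).

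The mix of Ccl2 and Ccl5 also varied within the shRNA group, although the pair lie on the same chromosome, 1488 kb apart. Ccl2 made up 23.2% of 310 counts in knockdown 2 (95% interval 18.6 to 28.3%) and 6.41% of 390 counts in knockdown 3 (4.19 to 9.32%), and in scramble 3 it made up 16.2% of 68 counts (8.36 to 27.1%). Knockdown 2 thus held the most Ccl2 and Cxcl10 of all libraries, and knockdown 3 the most Ccl5, Cxcl9 and Cxcl16.

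Cxcl16 (ENSMUSG00000018920, chr11:70453983-70459984, minus strand), a membrane-anchored ligand of Cxcr6 that is also known as a scavenger receptor, had 3.08, 7.27, 11.5, 3.20 and 1.51 CPM in knockdown libraries 1 to 5, against 0.874, 1.34, 4.11, 2.55 and 1.51 CPM in scramble libraries 1 to 5. Knockdown 2 and 3 lay above every scramble library and the other 3 within their range. It averaged 5.31 ± 4.05 CPM in knockdown and 2.08 ± 1.29 CPM in scramble libraries (SD, n = 5 each), a log2 fold change of 1.35 with an SE of 0.58 and an edgeR adjusted p of 0.149. The gene overlaps Zmynd15 on the opposite strand over 552 bases, and Zmynd15 was likewise highest in knockdown 3, at 3.58 CPM, so that reads of both genes could be confused.

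The 2 steady ligands differed by less than their spread. Cx3cl1 (ENSMUSG00000031778, chr8:94772009-94782427, plus strand) had 533, 532, 561, 553 and 572 CPM in knockdown libraries 1 to 5, against 542, 503, 552, 581 and 550.3 CPM in scramble libraries 1 to 5, with a log2 fold change of 0.01, an SE of 0.056 and an edgeR adjusted p of 0.912. The groups overlapped fully, and the highest library exceeded the lowest 1.08-fold with the shRNA and 1.16-fold with scramble. Cxcl12 (ENSMUSG00000061353, chr6:117168535-117181367, plus strand) had 61.2, 68.05, 60.0, 67.3 and 52.4 CPM in knockdown libraries 1 to 5, against 59.0, 69.4, 57.0, 62.2 and 58.4 CPM in scramble libraries 1 to 5. Its log2 fold change was 0.01 with an SE of 0.081 and an edgeR adjusted p of 0.929. With these SEs a change in either transcript of the size seen in Ccl5 or Cxcl9 would have stood out, whereas small changes would not. The sign of neither difference was stable across settings, Cx3cl1 turning to -0.09 under adjustment for the length and GC content of transcripts and Cxcl12 to -0.11 without knockdown 2, 3 and 4.

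The summed level of the 7 scarce ligands was highest in knockdown 2, 3 and 4, but these were the 3 highest libraries of only 3 ligands, Ccl2, Ccl5 and Cxcl10. Summed over those 7, knockdown libraries 1 to 5 held 10.7, 73.5, 74.1, 26.7 and 3.14 CPM, against 1.75, 9.27, 17.2, 3.62 and 2.75 CPM in scramble libraries 1 to 5. Knockdown 2, 3 and 4 held 1190 of the 1255 knockdown counts of Cxcl10 (94.8%), 702 of the 738 of Ccl5 (95.1%), 545 of the 578 of Cxcl9 (94.3%), 369 of the 442 of Cxcl16 (83.5%) and 110 of the 115 of Ccl2 (95.7%). They also held 31 of the 34 knockdown counts of Ccl3 (91.2%) and 17 of the 21 of Ccl4 (80.95%). Yet Ccl3 was highest in scramble 3, at 0.729 CPM, and Ccl4 had 7 counts in scramble 3 against 2 in knockdown 4. Cxcl9 was higher in knockdown 1 (2.06 CPM) than in knockdown 4 (1.11 CPM), and Cxcl16 was higher in scramble 3 (4.11 CPM) than in knockdown 4 (3.20 CPM). For Cx3cl1 knockdown 2, 3 and 4 held 61.2% of the knockdown counts. With those 3 libraries left out, the log2 fold changes were -0.07 for Ccl5, -0.27 for Cxcl10, 0.90 for Cxcl9 and 0.14 for Cxcl16, and no gene of 14705 was called (2590 had an unadjusted p under 0.05). These are the highest libraries of Ccl5, Cxcl10 and Ccl2, so leaving them out lowers the fold changes by construction.

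**Figure D2:**
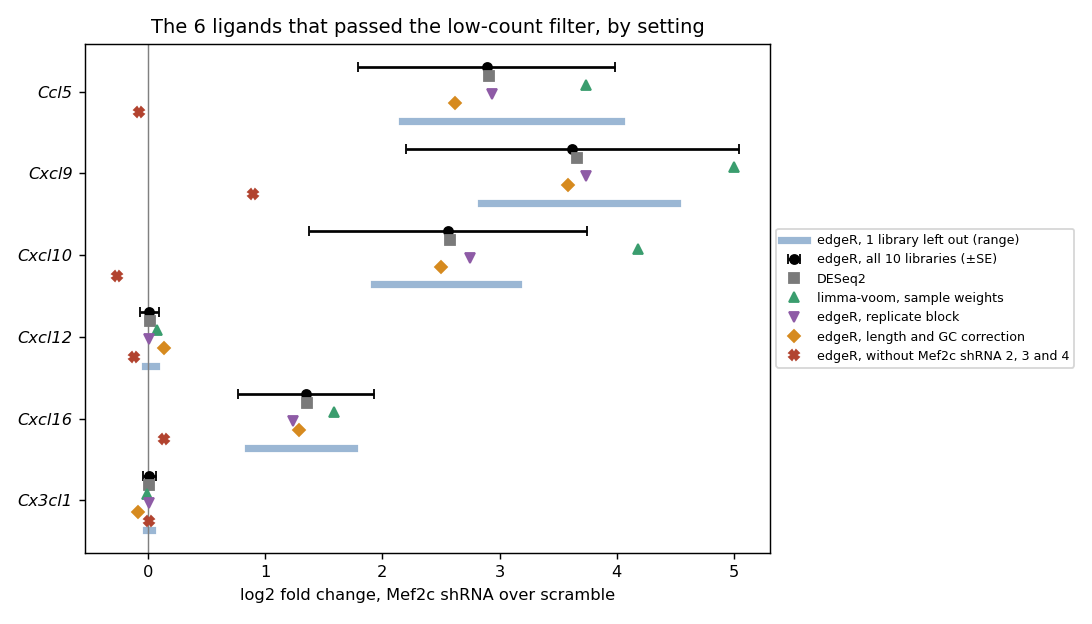
Log2 fold change of the 6 tested ligands, Mef2c shRNA over scramble (horizontal axis), under 6 settings and as the range over the 10 fits that each left out 1 library; the bar on the edgeR value of all 10 libraries is its SE. Cxcl9 and Cxcl16 lie above 0 throughout, Ccl5 and Cxcl10 lie above 0 except where shRNA libraries 2, 3 and 4 are left out (-0.07 and -0.27), and Cxcl12 and Cx3cl1 lie near 0 throughout.

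Choroid plexus markers, which come from tissue beside the hippocampus, were low where most scarce ligands were high. The 5 libraries with the lowest sum of these 6 markers were knockdown 2, 3 and 4 (46.3, 62.6 and 51.7 CPM) and scramble 2 and 3 (96.1 and 68.2 CPM), against 671.5 to 2761.6 CPM in the other 5. They were also the 5 libraries with the most Cxcl10, and they held 4 of the 5 highest for Ccl2, Ccl3, Ccl5, Cxcl9 and Cxcl16. Among those 5 libraries, knockdown 2, 3 and 4 had more Cxcl10, Ccl5 and Ccl2 than scramble 2 and 3, and among the other 5 the 2 knockdown libraries had more Cxcl10, Ccl5 and Ccl4 than the 3 scramble libraries. In Cxcl9, Cxcl16, Ccl3, Cxcl12 and Cx3cl1 the groups overlapped both among those 5 libraries and among the others, as did Ccl4 among the first and Ccl2 among the second. Groups of 2 and 3 libraries separate easily by chance, and the share of all genes that did so was not determined. The difference in Ccl4 rests on 2 counts in each of knockdown 1 and 5 against 0, under the floor of 3 counts. For Cxcl10, knockdown 5 had 8 counts against 4 to 5 in those scramble libraries. In a fit with the log2 sum of these markers as a further term, added once the data had been seen, the log2 fold changes were 2.07 for Ccl5, 3.00 for Cxcl9, 1.88 for Cxcl10 and 0.98 for Cxcl16, with edgeR adjusted p values of 0.0808, 0.145, 0.112 and 0.243. What the marker sum stands for in the preparation of the tissue was not tested.

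Cxcr3 and Cxcr6, receptors of scarce ligands, were highest in the same libraries. Of 18 chemokine receptors, all in the table, only 4 passed the filter, and 0 of those were called, with a median log2 fold change of 0.25. Cxcr3, the receptor of Cxcl9 and Cxcl10, had 0.706, 2.50, 2.38, 1.81 and 0.0604 CPM in knockdown libraries 1 to 5, against 0, 0.0639, 0.729, 0.268 and 0.275 CPM in scramble libraries 1 to 5. Its 3 highest libraries were knockdown 2, 3 and 4, and its log2 fold change was 2.45 with an SE of 0.83 and an edgeR adjusted p of 0.0758. It passed the threshold when scramble 3 or the library labelled knockdown 5 was left out, with edgeR adjusted p as low as 0.0136, and in DESeq2. Cxcr6, the receptor of Cxcl16, had 4, 47, 55, 25 and 2 counts in knockdown libraries 1 to 5, against 1, 8, 14, 2 and 2 counts in scramble libraries 1 to 5, and did not pass the filter. Ccr2, the receptor of Ccl2, had 5, 56, 23, 9 and 7 counts in knockdown libraries 1 to 5, against 7, 7, 15, 3 and 2 counts in scramble libraries 1 to 5, which placed knockdown 2 far above the rest, as for its ligand. Ccr1, a receptor of Ccl3 and Ccl5, had 11 counts over the knockdown libraries and 11 over the scramble libraries.

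The receptors carried by resident cells varied less. Cx3cr1, the microglial receptor of Cx3cl1, stood at 41.9 to 75.1 CPM in knockdown and 39.6 to 58.0 CPM in scramble libraries, with a log2 fold change of 0.20 (SE 0.15, edgeR adjusted p 0.403). For Cxcl12, its receptors Cxcr4 and Ackr3 had log2 fold changes of 0.06 (SE 0.20) and 0.07 (SE 0.19), with edgeR adjusted p values of 0.874 and 0.831. The signs of Cxcr4 and Ackr3 turned negative without knockdown 2, 3 and 4. Of 5 atypical receptors 4 were tested and 0 called. Ccrl2, which binds the chemoattractant chemerin, had the smallest p, with 1.45 ± 0.481 CPM in knockdown and 0.676 ± 0.291 CPM in scramble libraries (SD, n = 5 each; log2 fold change 1.09, SE 0.35, edgeR adjusted p 0.0559); it passed in DESeq2 (adjusted p 0.0456), in limma-voom and without knockdown 1 or the library labelled knockdown 5. Ackr1 of vessels had a log2 fold change of 0.27 (SE 0.14, edgeR adjusted p 0.216). The proteases that release Cx3cl1 and Cxcl16 from the membrane did not pass either, Adam10 with a log2 fold change of -0.07 (SE 0.075, edgeR adjusted p 0.563) and Adam17 with -0.03 (SE 0.10, edgeR adjusted p 0.894), and 0 of 6 genes of ligand processing were called.

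**Figure D3:**
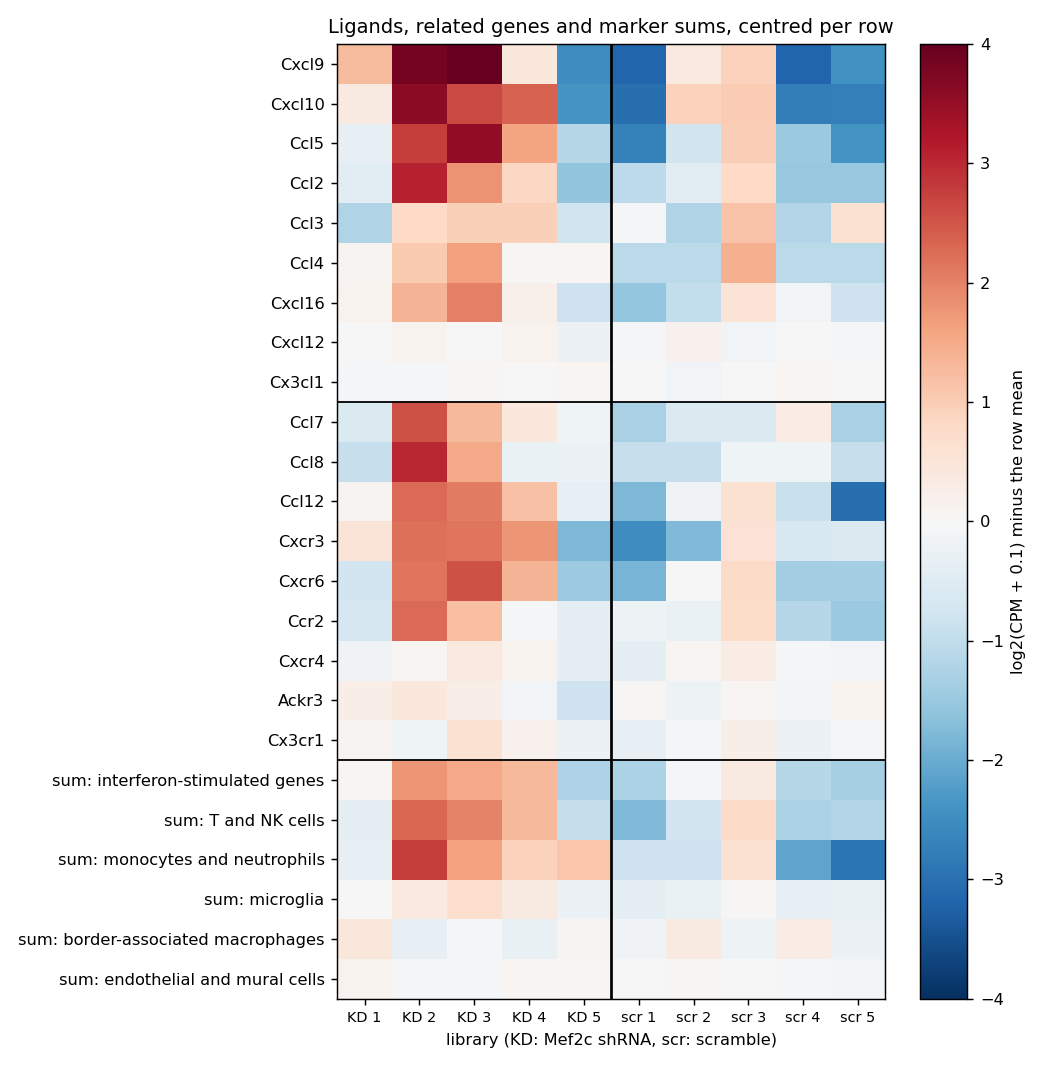
Deviation of log2(CPM + 0.1) from the row mean (colour, clipped at 4) for the 9 ligands, related ligands and receptors, and the summed CPM of marker lists (rows) in each library (columns; KD: Mef2c shRNA, scr: scramble). KD 2, 3 and 4 are red in Cxcl10, Ccl5, Ccl2, Cxcr3, Cxcr6 and the sums of interferon-stimulated genes and of T and NK cell markers, scr 3 is red to a lesser degree, and Cxcl12, Cx3cl1 and the endothelial sum are pale throughout.

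Among the other chemokines, Ccl7, Ccl8 and Ccl12, which lie near Ccl2, were highest in knockdown 2 as Ccl2 was, whereas Ccl11, another neighbour, had 0 counts there and 6 in knockdown 3. Of 29 further chemokine genes 23 were in the table, 9 were tested and 0 called, with a median log2 fold change of 0.37. Ccl12, a neighbour of Ccl2 on chromosome 11, had 0.771, 3.77, 3.26, 1.75 and 0.543 CPM in knockdown libraries 1 to 5, against 0.135, 0.639, 1.13, 0.335 and 0 CPM in scramble libraries 1 to 5 (log2 fold change 2.15, SE 0.73, edgeR adjusted p 0.0781). It passed the threshold when scramble 3, knockdown 1 or the library labelled knockdown 5 was left out, with edgeR adjusted p as low as 0.0426, and in DESeq2. Ccl7, Ccl8 and Ccl11, of the same cluster, were chosen after their values were seen. Ccl7 had 24 of its 39 knockdown counts and Ccl8 26 of its 35 in knockdown 2, the library with the most Ccl2, against 5 counts of Ccl7 and 2 of Ccl8 over all scramble libraries. Ccl25 was lower with the shRNA, at 9.38 ± 0.958 CPM in knockdown and 11.97 ± 1.25 CPM in scramble libraries (SD, n = 5 each; log2 fold change -0.35, SE 0.11), with an edgeR adjusted p of 0.0596 that reached 0.0386 without scramble 3. Ccl25 also passed in DESeq2 (adjusted p 0.0391) and in limma-voom. Ccl9 (log2 fold change 0.59, SE 0.27, edgeR adjusted p 0.157) and Cxcl14 (0.22, SE 0.12, edgeR adjusted p 0.259) did not pass in edgeR. Of the alternatives, Ccl9 passed in limma-voom alone (adjusted p 0.0473).

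Single genes of interferon signalling, of the interferon-stimulated genes and of the NF-kappaB pathway passed the test. Over all tested genes, 4.66% were called higher. Of 15 genes of interferon signalling 1 rose, Ifngr1, a chain of the interferon gamma receptor, which stood at 18.2 ± 2.18 CPM in knockdown and 12.7 ± 1.17 CPM in scramble libraries (SD, n = 5 each; log2 fold change 0.52, SE 0.10, edgeR adjusted p 0.0083) with no overlap between the groups. The signalling factors Irf3 (log2 fold change 0.30, SE 0.097) and Socs1 (1.19, SE 0.40) had edgeR adjusted p values of 0.058 and 0.0658. Both passed in DESeq2 (adjusted p 0.0377 and 0.0468), in limma-voom and without the library labelled knockdown 5, and Socs1 also without knockdown 1. Of 22 tested interferon-stimulated genes 3 rose, all 22 had a positive log2 fold change, and their median was 1.77. Those 3 were Ifi35 (log2 fold change 1.23, SE 0.26, edgeR adjusted p 0.0113), Rtp4 (2.05, SE 0.52, edgeR adjusted p 0.0351) and Ifi27 (0.48, SE 0.14, edgeR adjusted p 0.042). The summed CPM of the list was 246.9, 788.8, 661.8, 569.7 and 98.7 in knockdown libraries 1 to 5, against 96.5, 221.7, 296.8, 105.2 and 92.5 in scramble libraries 1 to 5, with knockdown 2, 3 and 4 highest as for Cxcl10. Of 14 tested genes of the NF-kappaB pathway and its cytokines 3 rose, the receptors of tumour necrosis factor Tnfrsf1b (1.00, SE 0.23, edgeR adjusted p 0.0152) and Tnfrsf1a (0.57, SE 0.15, edgeR adjusted p 0.0285) and the NF-kappaB subunit Rela (0.29, SE 0.085, edgeR adjusted p 0.0417).

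Downstream of the receptors, 3 of 10 signalling genes passed, against 12.3% of all tested genes called in either direction. Arrb2, an arrestin that takes activated receptors out of action, rose to 63.7 ± 2.30 CPM in knockdown libraries, against 49.9 ± 3.94 CPM in scramble libraries (SD, n = 5 each; log2 fold change 0.35, SE 0.066, edgeR adjusted p 0.0055). The related arrestin Arrb1 went the other way without passing, at 240.0 ± 22.4 CPM in knockdown and 273.8 ± 13.4 CPM in scramble libraries (log2 fold change -0.19, SE 0.069, edgeR adjusted p 0.0841). Gnai2, the inhibitory G protein subunit through which chemokine receptors signal, rose as well (log2 fold change 0.27, SE 0.066, edgeR adjusted p 0.0201), and the receptor kinase Grk3 fell (log2 fold change -0.30, SE 0.090, edgeR adjusted p 0.0442). All 10 calls of the interferon, NF-kappaB and signalling lists were lost under the adjustment for the length and GC content of transcripts, where 237 genes were called in all; the log2 fold change was then 0.44 for Ifngr1, 1.03 for Ifi35 and 0.18 for Arrb2. Arrb2, Ifngr1 and Ifi35 kept their call in each of the 10 fits that left out 1 library, Tnfrsf1b in 9 (lost without scramble 2), and Gnai2 in 6 (lost without scramble 1, 2, 4 or 5). Rtp4 and Tnfrsf1a kept it in 3, being lost without scramble 1, 2, 4 or 5 or knockdown 2, 3 or 4. Rela kept it in 3 (lost without any scramble library and without knockdown 2 or 4), Grk3 in 2 (lost without any scramble library and without knockdown 2, 3 or 4), and Ifi27 in 2 (lost without scramble 1, 2, 4 or 5 or knockdown 1, 2, 3 or 4). Rtp4 and Ifi27 also lost it without the filter, Gnai2 and Rela without scramble 4 and the library labelled knockdown 5, Grk3 with upper quartile scaling, and Grk3, Rela and Ifi27 with the choroid plexus term.

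Sums of microglial and of T and NK cell markers were highest in knockdown 2, 3 and 4, and those of other immune cells had another order. Microglial markers summed to 503.3, 649.4, 793.4, 638.0 and 423.0 CPM in knockdown libraries 1 to 5, against 379.3, 415.6, 506.9, 392.1 and 402.5 CPM in scramble libraries 1 to 5, and 5 of the 14, a list that includes Cx3cr1, rose (against 4.66% of all tested genes), among them Selplg (log2 fold change 0.69, SE 0.14, edgeR adjusted p 0.0099), Tmem119 (0.75, SE 0.15, edgeR adjusted p 0.010), Csf1r (0.48, SE 0.12, edgeR adjusted p 0.0273) and Aif1 (0.96, SE 0.25, edgeR adjusted p 0.0277). Selplg and Tmem119 kept their call whichever library was left out, Csf1r lost it without scramble 1, 2, 4 or 5 or knockdown 2 or 4, and Aif1 without these or knockdown 3. Under the adjustment for length and GC content Selplg alone of these 4 kept its call. In the main fit 13 of the 14 microglial markers had a positive log2 fold change, but several barely differed. Among these were P2ry12 (log2 fold change 0.13, SE 0.099), Sall1 (0.08, SE 0.16), Gpr34 (0.19, SE 0.16) and Fcrls (-0.07, SE 0.13), none of which passed. Markers of T and NK cells summed to 7.06, 45.0, 36.1, 22.6 and 4.65 CPM in knockdown libraries 1 to 5, against 2.62, 5.31, 15.4, 3.75 and 3.99 CPM in scramble libraries 1 to 5. Of that list, which also holds Cxcr3 and Cxcr6, 13 of 14 genes were in the table, 5 were tested in edgeR and 0 called. DESeq2 called Cd4, Cxcr3, Gzmb and Nkg7 higher (adjusted p 0.0182, 0.0221, 0.0401 and 0.0414) and no other gene of the list. Over all genes DESeq2 tested, 17.1% were called in either direction. Of the 5 tested in edgeR, Cd4, a co-receptor of helper T cells that microglia can also express, had a log2 fold change of 1.94 (SE 0.63, edgeR adjusted p 0.064). Cd3e, part of the T cell receptor complex, had one of 1.76 (SE 0.73, edgeR adjusted p 0.128). Cd4 also passed in limma-voom and without knockdown 1 or the library labelled knockdown 5, and Cd3e without knockdown 1. Markers of monocytes and neutrophils summed to 3.02, 26.4, 11.9, 7.34 and 8.33 CPM in knockdown libraries 1 to 5, against 2.08, 2.11, 5.90, 0.804 and 0.412 CPM in scramble libraries 1 to 5. Border-associated macrophage markers overlapped, at 8.60 to 14.8 CPM in knockdown and 9.28 to 14.0 CPM in scramble libraries, with 0 of 4 tested genes called, and endothelial and mural markers stood at 327.6 to 378.7 CPM in knockdown and 321.2 to 359.1 CPM in scramble libraries, with 2 of 12 genes called higher, Cldn5 and Ly6c1, against 4.66% of all tested genes. Cldn5 kept its call in 6 of the 10 fits that left out 1 library (lost without scramble 2, 4 or 5 or knockdown 2) and Ly6c1 in 2 (lost without any scramble library and without knockdown 2, 3 or 4), and both lost it under the adjustment for length and GC content. The part of these cell types in the chemokine levels was not tested.

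The genes whose pattern over the 10 libraries lay closest to each tested ligand were found by the root mean square difference of log2 CPM centred per gene. For Cxcl10 they were Mx1 (0.51), Oas3 (0.55) and Ifi209 (0.63), which are interferon-inducible, set against a root mean square of 2.35 for Cxcl10's own deviations. Those of Cxcl9 were less close, Ifi206 at 0.85, Cd74 at 0.88 and Oas3 at 0.89, against 2.50 for Cxcl9 itself. For Ccl5 they were Igtp (0.55), Ms4a4b (0.55) and H2-Q7 (0.62), against 1.99 for Ccl5. Cxcl16 lay closest to Myo1g (0.28), Il21r (0.38) and Itgb2 (0.41), against 1.04 for Cxcl16. Among the 4 scarce ligands tested, the closest pair was Cxcl9 and Cxcl10 at 0.89, followed by Ccl5 and Cxcl10 at 0.93, and the steady Cxcl12 and Cx3cl1 differed by 0.16. For Cxcl12 (Acad11, Mfsd1 and Hnrnph1) and Cx3cl1 (Agpat3, Suds3 and Tmem25) the nearest genes were, like these ligands, nearly constant across libraries.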

How the data were processed

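Polyadenylated RNA of injected CA3 was sequenced as read pairs on an Illumina HiSeq2500, per the labels' protocols, after Trizol extraction. HISAT2, featureCounts and mm10 are named in the submitters' processing notes; for their versions, the strandedness and the annotation the sources used here give nothing. The files deposited by the authors hold raw read counts, 1 whole number per gene, not normalized. Of 18453 Ensembl identifiers 18421 matched GENCODE M21 (GRCm38, the assembly of mm10), and 32 did not.

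Groups came from the titles, since the treatment tag of knockdown 1 is misspelt. No library duplicated another (lowest chi-square per degree of freedom between libraries of a group 3.46). In edgeR 4.0.16 (R 4.3.3), filterByExpr removed low genes, TMM set the library sizes and a quasi-likelihood F-test with robust estimation set knockdown against scramble, no other term included, with Benjamini-Hochberg adjustment over all tested genes and a threshold of 0.05. The SE is the size of the log2 fold change divided by the square root of F. Log2 CPM used a prior count of 2. Alternatives were DESeq2 1.42.0, limma-voom of limma 3.58.1 with sample weights, 3 other normalizations, 2 other filters, an adjusted p threshold of 0.1, a replicate block, per-library splines (5 degrees of freedom) of transcript length and GC content, leaving out libraries, and, chosen after seeing the data, the choroid plexus covariate. The procedure was tested on simulated counts.

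The ligands, gene lists and alternatives were chosen with earlier results of these data known. Genes named are the 9 ligands, their receptors, Adam10 and Adam17, Mef2c, at most 4 genes of each described list, taken by smallest p, and the 3 nearest genes of each tested ligand. Added after values were seen were Art3, Zmynd15, Ccl7, Ccl8, Ccl11, P2ry12, Sall1, Gpr34, Fcrls, Gzmb and Nkg7. A few genes taken by this rule are left out here.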

Additional observations from a re-analysis of the deposited data

Results flagged for a closer look

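Of 48 groups of 5 libraries tested with Dixon's criterion (24 genes in 2 groups), 6 held a library far from the other 4. By chance the criterion flags about 1 in 20 where values are normally distributed. Low counts are not, and Ccl4 was flagged with 7 counts in scramble 3 against 0 in the other scramble libraries. The number of flags therefore cannot be set against that rate. Scramble 3 stood apart from the other scramble libraries in Ccl2 (0.729 CPM), Ccl4 (0.464 CPM), Ccl5 (3.78 CPM) and the monocyte marker Ly6c2 (3.51 CPM). Scramble 4 stood apart in Mef2c at 312.0 CPM, and knockdown 3 in the receptor Ccr1 at 0.439 CPM, from 7 counts.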

How the results depend on the processing

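Across the settings run, the count of called ligands stayed at 0 except for 2 in DESeq2 (Ccl2 and Ccl5) and 4 with the replicate block. The replicate numbers do not pair the libraries: same-numbered libraries correlated at 0.239, 0.185, 0.403, -0.114 and 0.079 in their deviations, 3 of 5 above 0.1, and only number 3 matched itself best. With the replicate block 1313 genes were called, and Ccl5 (2.94, edgeR adjusted p 0.0012), Cxcl9 (3.74, 0.0025), Cxcl10 (2.75, 0.0322) and Cxcl16 (1.24, 0.046) passed. The count of 1766 genes became 3393 in limma-voom, 237 with the length and GC content correction, 3106 at an adjusted p under 0.1, 1129 with the choroid plexus covariate, 0 without knockdown 2, 3 and 4 (edgeR; 2590 at an unadjusted p under 0.05) and 1029 without scramble 4 and the library labelled knockdown 5; the causes were not tested. Leaving out 1 library gave 631 to 3305, with 990, 631, 758 and 674 without scramble 1, 2, 4 and 5 and 3305, 737, 1137 and 1061 without knockdown 1, 2, 3 and 4. Upper quartile scaling raised the share of higher genes among the calls to 46.4%, against 38.0%.

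Under limma-voom the log2 fold changes of Cxcl9 and Cxcl10 were 5.00 and 4.18. Those of Ccl5, Cxcl9, Cxcl10 and Cxcl16 ranged over 2.17 to 4.04, 2.84 to 4.51, 1.93 to 3.16 and 0.86 to 1.76 when 1 library was left out. Signs turned in the following. Without knockdown 2, 3 and 4 the values were -0.0708 for Ccl5, -0.266 for Cxcl10, -0.114 for Cxcl12, -0.256 for Cxcr4, -0.179 for Ackr3, -0.99 for Cd3e and -0.185 for Lck. The adjustment for length and GC gave -0.0854 for Cx3cl1, -0.0301 for Cxcr4, 0.0146 for Adam10 and 0.0493 for Adam17. In limma-voom Cx3cl1 was -0.00291 and Adam17 0.00368, without scramble 4 and the library labelled knockdown 5 Adam17 was 0.0484, and with the choroid covariate Cxcl12 was -0.0182 and Cxcr4 -0.0521. Leaving out 1 library gave -0.0213 to 0.0707 for Cxcl12, -0.0162 to 0.0352 for Cx3cl1, -0.0486 to 0.158 for Cxcr4, -0.0267 to 0.234 for Ackr3 and -0.0804 to 0.0576 for Adam17. The cause of these turns was not tested. At counts as low as those of Ccl3 and Ccl4, depth limits what can be seen.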
